A study of Mus musculus with 3 samples.

Results

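Muc6 encodes a large secreted mucin of the glands of the stomach and duodenum. The cells described here are epithelial cells of 3 mouse pancreatic tumours that carried at least 2 UMIs (unique molecular identifiers, which count transcripts) of Muc6. A cell was taken when it had at least 500 genes, at most 20% mitochondrial UMIs, at least 1 UMI each of Epcam and Krt18, at most 2 UMIs of Dcn and Col3a1 together, fewer than 10 UMIs of Gkn1 and Gkn2 together per 10000, and at least 2 UMIs of Muc6. The rule took 466 of 19576 cell barcodes, with 222 in tumour 1, 88 in tumour 2 and 156 in tumour 3. They are called Muc6+ cells below. Cells that met every other part of the rule but had no Muc6 UMI are the Muc6 0 cells (1726, 1782 and 3384 cells in tumours 1, 2 and 3). Cells with no Muc6 UMI that had at least 10 UMIs of Gkn1 and Gkn2 per 10000 and met the rest of the rule are the pit-gate cells (142, 106 and 119 cells), since both gastrokines mark surface (pit) mucous cells of the stomach.

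All 3 tumours came from KPf/fC mice, in which Cre recombinase made in the pancreas removes both floxed copies of Trp53. There was 1 strain and no treatment, and no normal pancreas or stomach was among the samples. Cells negative for CD45, CD31 and PDGFRa at the surface had been sorted, so leukocytes, endothelial cells and many fibroblasts had been depleted before sequencing with 10x 3' v2 chemistry. It is not stated in the labels if the 3 tumours are from separate animals. The main fits below compared classes inside each tumour, which removed differences in level between tumours. Their p-values rest on a spread that was estimated with information shared over all genes. They do not measure only how much the difference of a gene varied over these 3 tumours. A gene could thus be called although 1 tumour went the other way.

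The stomach is lined by surface pit cells that secrete Muc5ac, Tff1 and the gastrokines Gkn1 and Gkn2, while mucous gland cells (mucous neck and pyloric gland cells) secrete Muc6 and the trefoil factor Tff2. When acid-secreting glands are injured, chief cells can turn into mucous cells that carry Tff2, a change called spasmolytic polypeptide-expressing metaplasia. Gastric mucins and trefoil factors are also known from early pancreatic lesions and from the classical type of pancreatic cancer, in which duct-like cells take on features of foregut mucosa.

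Muc6 lies on chromosome 7 of the mouse genome (GRCm38, chr7:141633456-141655319, minus strand), in GENCODE a protein-coding gene next to the gel-forming mucin genes Muc2, Muc5ac and Muc5b, of which the last ends at 141873084. Gkn3, a gastrokine of mouse gland mucous cells, lies at chr6:87383256-87388935 (minus strand), in 1 cluster with Gkn2 and Gkn1. Tff2 lies at chr17:31141049-31144282 (minus strand), Agr2 at chr12:35992907-36004087 and Aqp5 at chr15:99590782-99594829 (both plus strand). These positions were looked up by gene identifier, since no label or file header names the build behind the counts. The 250 bases before the transcription start of Muc6 (GRCm38.p6, chr7:141655394-141655643, minus strand) and Gkn3 (chr6:87388936-87389185, minus strand) are shown from RefSeq because the first gene defined the cells and the second had the largest increase over Muc6 0 cells among the tested genes named below. Capitals mark GATAA on either strand (TTATC where it lies on the other strand), the core bound by GATA factors, which act in foregut epithelium.
Muc6: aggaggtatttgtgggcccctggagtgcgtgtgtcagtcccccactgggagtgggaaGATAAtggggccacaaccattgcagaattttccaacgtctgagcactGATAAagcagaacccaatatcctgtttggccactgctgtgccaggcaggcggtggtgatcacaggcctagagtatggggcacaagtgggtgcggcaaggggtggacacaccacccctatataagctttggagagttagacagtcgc
Gkn3: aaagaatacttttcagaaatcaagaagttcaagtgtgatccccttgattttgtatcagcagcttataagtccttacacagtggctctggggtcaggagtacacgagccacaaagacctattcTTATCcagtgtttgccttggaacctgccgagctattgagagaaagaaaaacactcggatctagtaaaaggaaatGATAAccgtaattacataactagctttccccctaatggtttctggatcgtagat
Each of these windows held 2 matches, and those of Aqp5 and Agr2 held 0. Of 32851 promoter windows of this length in the same table, 22.6% held at least 1 match and 4.28% held 2 or more. Of the 15 named genes with the largest increase over Muc6 0 cells, 11 had a window and 3 of those held a match, and of the 15 with the largest decrease, 12 had a window and 5 held a match. Such a match is a run of letters and not a measured binding site.

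The gate that all these cells share held 2135, 1957 and 3715 cells in tumours 1, 2 and 3. Muc6+ cells made up 10.4% of it in tumour 1 (95% exact binomial interval 9.13 to 11.8), 4.50% in tumour 2 (3.62 to 5.51) and 4.20% in tumour 3 (3.58 to 4.89), a mean of 6.36% ± 3.50 (SD, n = 3). Tumour 1 stood above the other tumours, whose intervals overlapped. The intervals cover counting error only. Thinned to a common 3000 UMIs per cell, they were 5.71%, 2.15% and 2.16%. Cells with 1 UMI of Muc6, just outside the rule, numbered 187, 87 and 175, and cells with exactly 2 UMIs, just inside it, numbered 56, 34 and 46. Median depth was 8537, 9407 and 7233 UMIs in Muc6+ cells, against 8789, 8443 and 7074 UMIs in Muc6 0 cells. In a stromal reference (cells with 0 UMIs of Epcam and Krt18 and at least 10 UMIs of Dcn and Col3a1), whose median depth was 6295, 6836 and 4514 UMIs, only 1, 1 and 0 of 829, 716 and 1456 cells had 2 or more Muc6 UMIs. Scrublet marked 3, 2 and 0 Muc6+ cells as doublets. Between 50 and 65 barcode sequences were shared by each pair of tumours, and none of these was a Muc6+ cell in both.

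The markers that name gland mucous cells were high in Muc6+ cells of every tumour. Muc6 itself, which set the class, stood at 841, 576 and 1080 CPM (its UMIs per 1e6 summed UMIs) in tumours 1, 2 and 3. Tff2, a secreted trefoil peptide that protects mucosa, had 17165, 21227 and 21621 CPM in Muc6+ cells, against 1173, 1099 and 1727 CPM in Muc6 0 cells. The lowest Muc6+ value was far above the highest Muc6 0 value, and the fitted difference was 4.04 ± 0.10 on the log2 scale (SE, edgeR adjusted p = 3.79e-23). Gkn3 had 12886, 15094 and 10912 CPM in Muc6+ cells, against 1241, 853 and 265 CPM in Muc6 0 cells (log2 fold change 4.40 ± 0.21, edgeR adjusted p = 2.84e-16). Agr2, an endoplasmic reticulum disulfide isomerase needed to fold mucins, had 2620, 3548 and 1730 CPM in Muc6+ cells, against 154, 265 and 66.0 CPM in Muc6 0 cells (4.29 ± 0.14, edgeR adjusted p = 4.36e-20). The tumour sums of the groups did not overlap for either gene. Aqp5, a water channel of secretory glands, had 308, 420 and 177 CPM in Muc6+ cells, against 46.2, 71.5 and 32.8 CPM in Muc6 0 cells (2.69 ± 0.12, edgeR adjusted p = 1.85e-16). These markers were chosen with earlier results of the same data known, so they check the name and are not independent evidence for it.

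**Figure D1:**
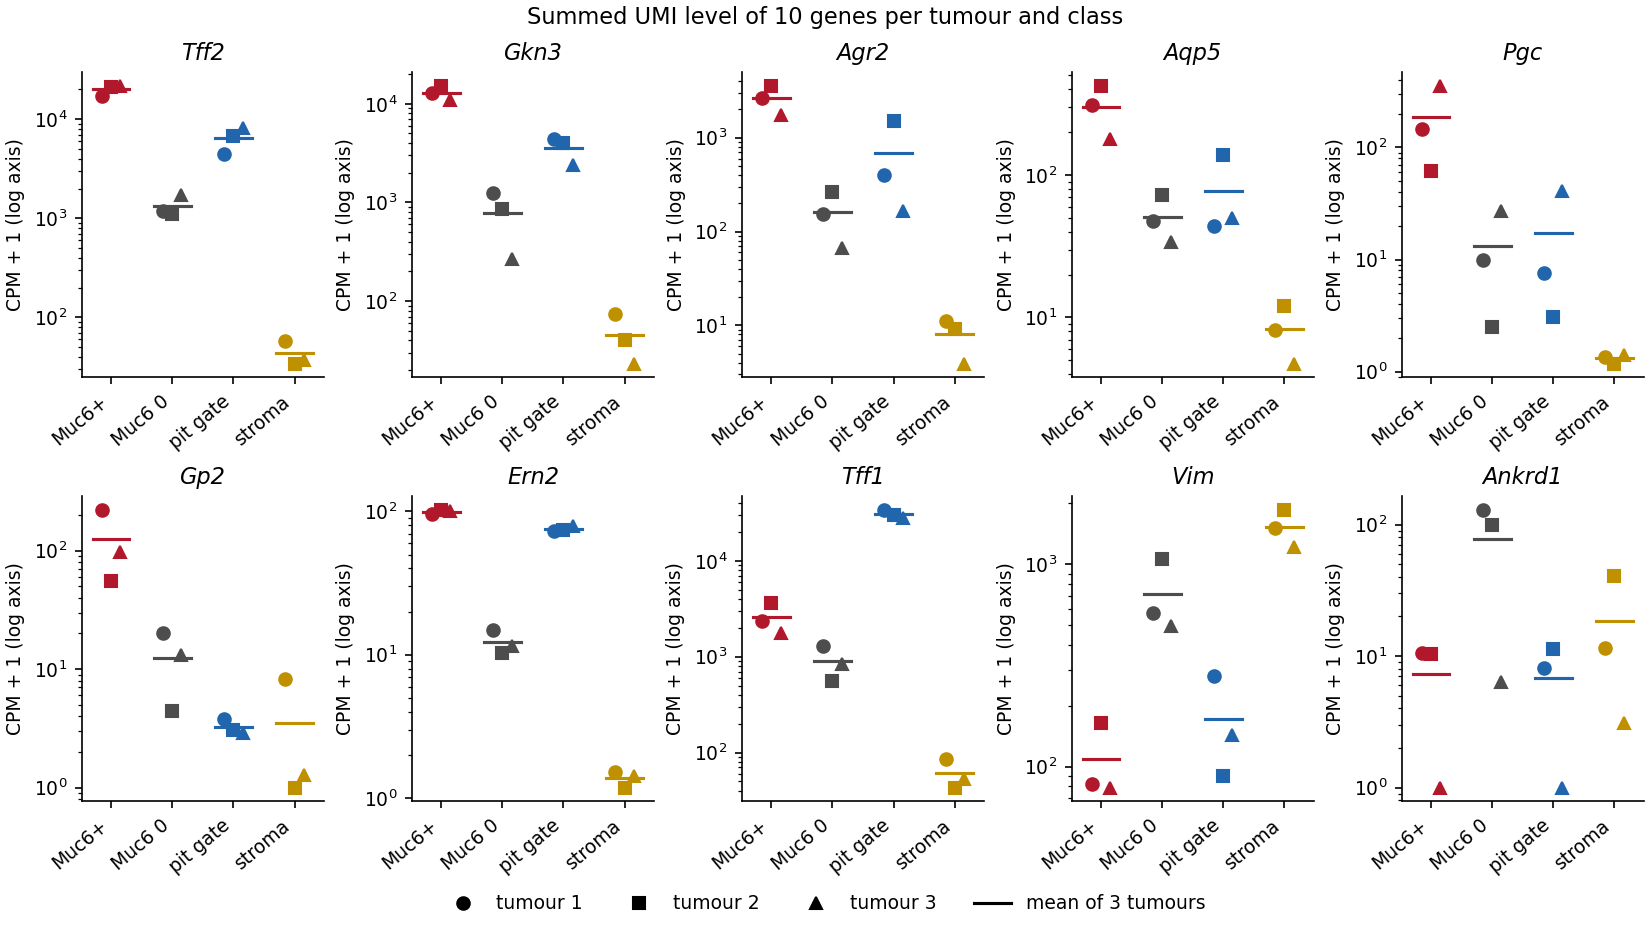
Level of 10 genes (CPM of summed UMIs plus 1, log axis) in Muc6+ cells, Muc6 0 cells, pit-gate cells and the stromal reference; each symbol is 1 tumour and each line the mean of 3 tumours. Tff2, Gkn3, Agr2 and Aqp5 lie higher in Muc6+ cells than in Muc6 0 cells in every tumour, Tff1 is highest in pit-gate cells at 28030 to 33850 CPM, and Vim is lower in Muc6+ cells, at 77.7 to 164 CPM, than in Muc6 0 cells.

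A Tff2 UMI was found in 93.7%, 98.9% and 94.9% of Muc6+ cells, against 60.0%, 49.8% and 54.3% of Muc6 0 cells and 30.9%, 22.1% and 15.6% of the stromal reference. After thinning to 3000 UMIs these shares were 87.4%, 94.3% and 86.2% of Muc6+ cells and 39.3%, 32.4% and 39.8% of Muc6 0 cells. In the stromal reference they were 15.7%, 8.24% and 9.89%. Stromal cells should lack Tff2, and the part of free RNA in these values was not tested. Agr2 was found in 88.7%, 96.6% and 80.8% of Muc6+ cells, against 32.0%, 34.5% and 18.3% of Muc6 0 cells and 6.51%, 6.28% and 1.37% of the stromal reference. All of Tff2, Gkn3, Aqp5 and Agr2 were detected together in 56.3%, 76.1% and 35.9% of Muc6+ cells, against 7.36%, 9.88% and 2.63% of Muc6 0 cells. No Muc6+ cell lacked all of them, whereas 15.5%, 24.5% and 30.9% of Muc6 0 cells did. In 16, 15 and 20 Muc6 0 cells both Tff2 and Gkn3 reached the medians of the Muc6+ cells of the same tumour.

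The Muc6+ cells differed widely among themselves. In tumour 1 the median Tff2 level was 65.0 UMIs per 10000 with 10th and 90th percentiles of 1.47 and 679, in tumour 2 it was 93.4 (5.78 and 695) and in tumour 3 72.7 (1.29 and 676). The middle range of Muc6+ cells lay above that of Muc6 0 cells for Tff2, Gkn3 and Agr2 in all tumours, as the plot of the spread over cells shows. Tff1, the trefoil factor of pit cells, had medians of only 3.14, 7.74 and 1.98 UMIs per 10000 in Muc6+ cells.

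**Figure D2:**
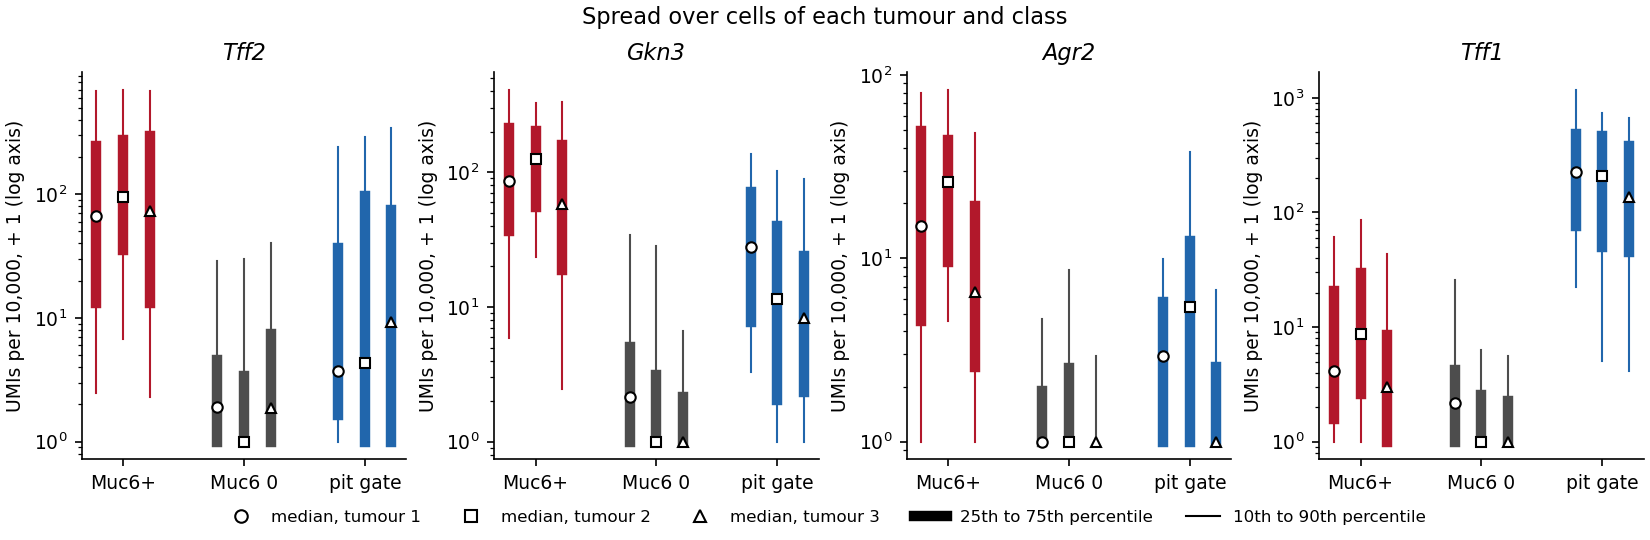
UMIs per 10000 plus 1 (log axis) of 4 genes over single cells of each tumour, with medians (symbols), the 25th to 75th percentile (thick bars) and the 10th to 90th percentile (thin lines). Tff2, Gkn3 and Agr2 medians are higher in Muc6+ cells than in Muc6 0 and pit-gate cells in each tumour, while the Tff1 medians of pit-gate cells (222, 205 and 136) are far above those of Muc6+ cells.

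Levels of several secretory genes were higher in cells with more Muc6 UMIs, also below the threshold of the rule. These groups of cells follow from the Muc6 counts that chose the cells and are given as a description, with no test. Agr2 in tumour 1 had 154 CPM in cells with 0 Muc6 UMIs, 425 with 1, 823 with 2, 2058 with 3 to 4, 2791 with 5 to 9 and 5341 with 10 or more. The ends of this range in tumour 2 were 265 and 7924 CPM, and in tumour 3 they were 66.0 and 5268 CPM. Tff2 did not climb at every step and had 16149 CPM with 2 Muc6 UMIs, 8447 with 3 to 4 and 50405 with 10 or more in tumour 2. Pgc, pepsinogen C of chief and mucous neck cells, reached 398, 185 and 1152 CPM in cells with 10 or more Muc6 UMIs, against 8.85, 1.53 and 25.9 CPM in Muc6 0 cells. Tff1 did not follow this order and was highest, at 3119, 5470 and 2900 CPM, in cells with exactly 2 Muc6 UMIs. A4gnt, the enzyme that adds the terminal sugar typical of gland mucin, was too low to be tested. Its UMIs were found in 15.3% and 9.38% of cells with 10 or more Muc6 UMIs in tumours 1 and 3 and in 0 of 13 such cells in tumour 2, and in 0 of the cells with 1 to 9 Muc6 UMIs in any tumour. Within Muc6+ cells thinned to 3000 UMIs, Agr2 and Muc6 had Spearman correlations of 0.45, 0.27 and 0.41 over 222, 88 and 152 cells that share a library, and Tff1 and Muc6 had −0.07, −0.02 and 0.03.

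**Figure D3:**
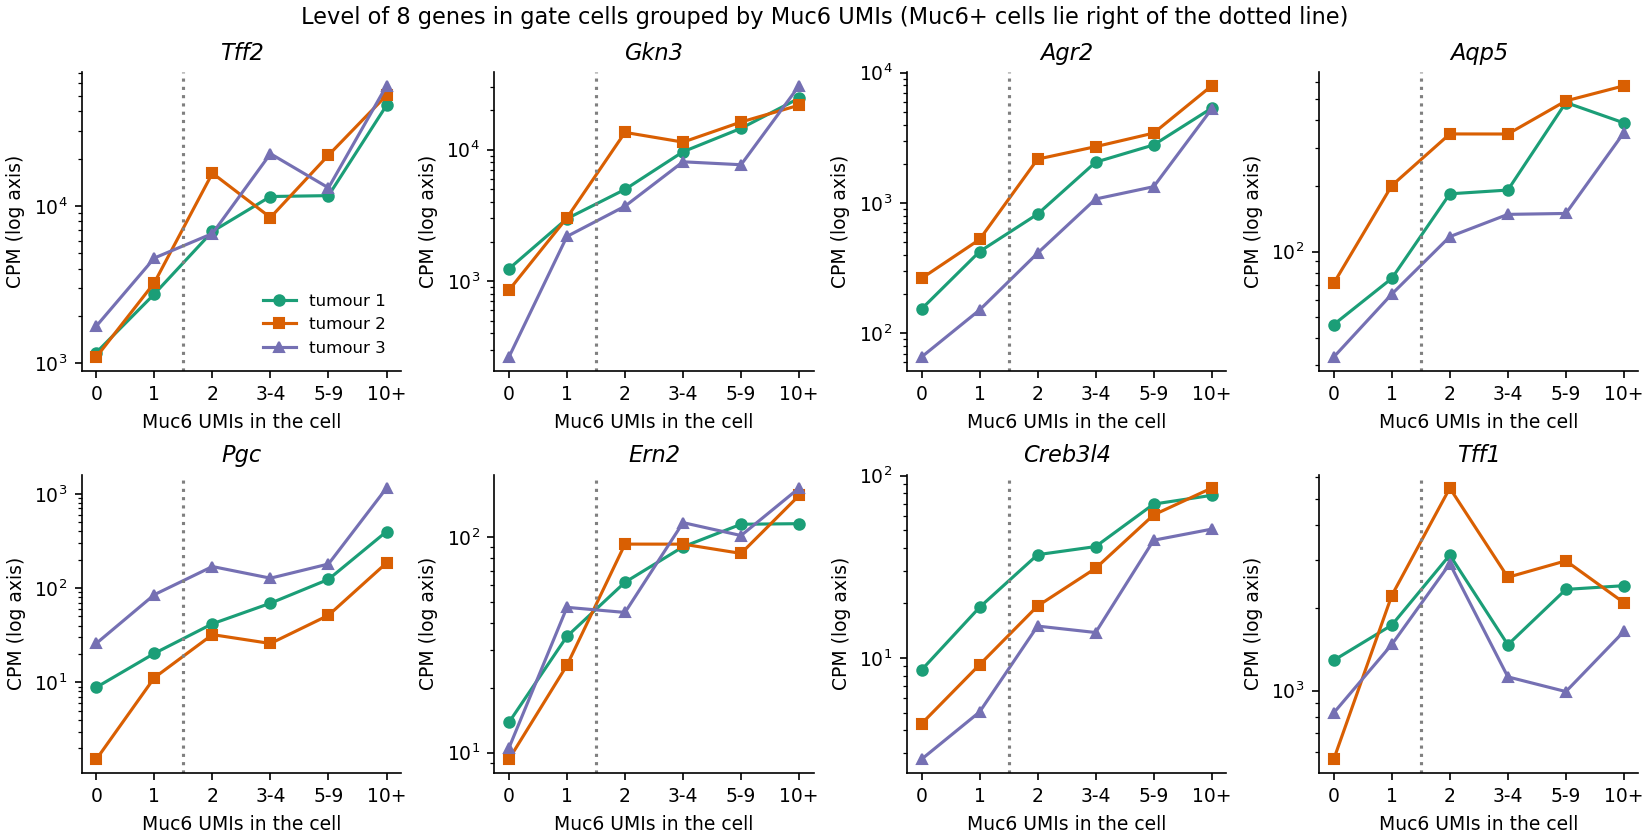
Level of 8 genes (CPM, log axis) in gate cells of each tumour grouped by their Muc6 UMIs; the dotted line marks the threshold of 2 UMIs. Tff2, Gkn3, Agr2, Aqp5, Pgc, Ern2 and Creb3l4 are higher in the last group than in the first in each tumour, while Tff1 peaks at 2 UMIs.

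The first comparison asked how Muc6+ cells differed from the rest of the gated epithelium. UMIs were summed per tumour and class, and the sums were fitted with edgeR's quasi-likelihood test with the tumour as a block. At an adjusted p under 0.05, 1340 of 12424 tested genes were higher in Muc6+ cells (10.8%) and 1432 were lower (11.5%), together 22.3%, with a median log2 fold change of −0.01 over all tested genes. Without the tumour as a block, 38 and 42 genes passed. Without tumour 1 the counts were 879 and 935, and DESeq2 called 863 and 800.

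**Figure D4:**
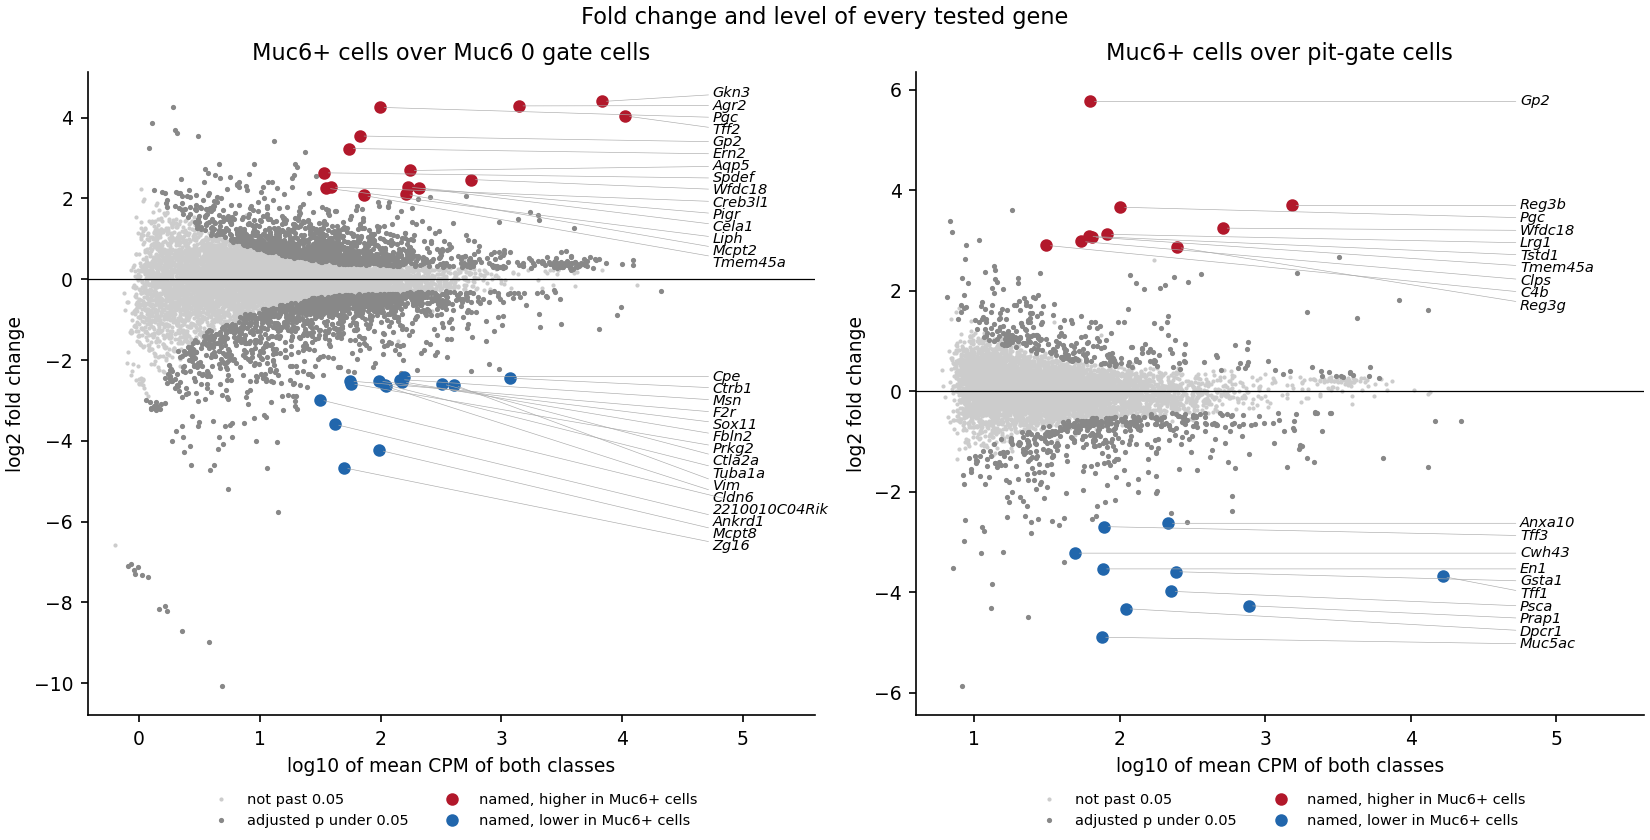
Log2 fold change of every tested gene against its mean level (log10 CPM) for Muc6+ cells over Muc6 0 cells (left) and over pit-gate cells (right), with the named genes in colour. Gkn3, Agr2, Pgc and Tff2 lead the higher genes on the left at log2 fold changes of 4.04 to 4.40, and Gp2 leads on the right at 5.77. On the right Gp2 passed the low-count filter on its Muc6+ sums alone.

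The 15 named genes with the largest increase held secreted proteins (Gkn3, Tff2, Pgc), the transcription factors Spdef and Creb3l1, the ER sensor Ern2, the channel Aqp5 and membrane proteins such as Pigr. After Gkn3 and Agr2, Pgc had 147, 60.5 and 352 CPM in Muc6+ cells, against 8.85, 1.53 and 25.9 CPM in Muc6 0 cells (log2 fold change 4.26 ± 0.18, edgeR adjusted p = 2.56e-17). Gp2, a membrane glycoprotein of zymogen granules, had 219, 54.7 and 96.5 CPM in Muc6+ cells, against 19, 3.39 and 12 CPM in Muc6 0 cells (3.55 ± 0.15, edgeR adjusted p = 5.97e-17). Both genes were higher in each tumour with no overlap of the tumour sums, and tumours differed several-fold in level. Of other chief cell genes Lipf was at 0 in all Muc6+ sums, Gif had 4.52, 0 and 0 CPM and Pga5 2.71, 0 and 4.91 CPM. Other higher genes were Wfdc18, a WAP-domain secreted protein (2.47 ± 0.18), Pigr, the receptor that carries immunoglobulin A across epithelium (2.28 ± 0.13), the elastase gene Cela1 (2.26 ± 0.14), the lipase gene Liph (2.25 ± 0.15), Tmem45a (2.08 ± 0.15) and the mast cell protease gene Mcpt2 (2.1 ± 0.26).

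Genes of mucin making and of the endoplasmic reticulum (ER) were more often higher than lower. Of 30 tested secretory pathway and ER genes 19 were higher and 1 was lower, with a median log2 fold change of 0.46. Ern2, the ER stress sensor found in mucous epithelium, had 94.5, 101 and 99.8 CPM in Muc6+ cells, against 13.8, 9.33 and 10.5 CPM in Muc6 0 cells (3.24 ± 0.15, edgeR adjusted p = 1.58e-16). The ER-bound transcription factors Creb3l4 (3.14 ± 0.21) and Creb3l1 (2.28 ± 0.16) and the ER stress factor Xbp1 (0.74 ± 0.12) were higher too. Hspa5, the main ER chaperone, did not pass the test (0.27 ± 0.12). The translocon genes Sec61b (0.83 ± 0.10) and Sec61a1 (0.96 ± 0.12), the signal sequence receptor gene Ssr4 (0.96 ± 0.11) and the cargo gene Tmed3 (0.98 ± 0.14) were higher as well. Of 23 tested genes of mucin O-glycosylation 10 were higher and 2 were lower (median 0.84). The first sugar of mucin chains is added by GalNAc transferases, of which Galnt6 (2.79 ± 0.24), Galnt12 (1.72 ± 0.15) and Galnt7 (1.70 ± 0.13) were higher while Galnt1 was lower (−1.05 ± 0.14). C1galt1 (1.00 ± 0.13) and Gcnt3 (1.12 ± 0.16), which build core structures on that sugar, were also higher.

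Of 11 tested genes of the gland mucous list 9 were higher and 1 was lower (median 1.60). Besides those above they were Dmbt1, a secreted scavenger receptor (1.60 ± 0.11), Mia (1.46 ± 0.24), the fucosyltransferase gene Fut2 (1.18 ± 0.25) and the chloride cotransporter gene Slc12a2 (0.70 ± 0.12), while Glipr1 was lower (−1.46 ± 0.21). Among mucins 4 of 8 tested genes were higher, namely Muc5b (1.96 ± 0.54), Muc3a (1.68 ± 0.28), Muc4 (1.13 ± 0.19) and Muc1 (0.73 ± 0.11). Muc5ac, the pit mucin, had 2.71, 5.82 and 4.91 CPM in Muc6+ cells, against 2.60, 2.32 and 20.7 CPM in Muc6 0 cells, and did not pass the test. Muc2 of goblet cells was at 0 in all Muc6+ sums. Of 14 tested foveolar and pit genes 9 were higher and 2 were lower (median 0.63), with Tff1 at 2343, 3647 and 1776 CPM in Muc6+ cells, against 1290, 562 and 830 CPM in Muc6 0 cells (1.65 ± 0.18). Tff3, the trefoil factor of goblet cells, was lower in the fit (−1.96 ± 0.31) but only in 2 of 3 tumours, at 12.7, 16.3 and 21.3 CPM in Muc6+ cells, against 125, 12 and 55.8 CPM in Muc6 0 cells, and it did not pass without tumour 1 (−0.65). Without tumour 2 neither Fut2 (0.77) nor Muc5b (1.18) passed.

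The transcription factor list had 11 higher and 2 lower genes of 30 tested (median 0.42). Spdef, a factor of mucus-secreting cells, had 63.8, 66.3 and 45.0 CPM in Muc6+ cells, against 14.9, 7.74 and 7.52 CPM in Muc6 0 cells (2.64 ± 0.18, edgeR adjusted p = 1.9e-12). Foxa3 (0.95 ± 0.19) and Klf5 (0.80 ± 0.12) were higher by smaller amounts. So were Gata4 (0.73 ± 0.26), Gata5 (0.61 ± 0.17) and Gata6 (0.53 ± 0.18), though Gata6 only in 2 of 3 tumours, with 37.1, 39.6 and 59.7 CPM in Muc6+ cells, against 40.7, 17 and 41.6 CPM in Muc6 0 cells. The GATA calls were weak, as Gata4 was lost without tumour 1 (0.85), 2 (0.64) or 3 (0.69), Gata5 without tumour 1 (0.67) or 2 (0.41) and Gata6 without tumour 2 (0.29) or 3 (0.40). Sox4 was lower (−0.57 ± 0.14), but not past the threshold without tumour 3 (−0.27). Of 21 tested ion and water transport genes 13 were higher and 3 were lower (median 0.70). They included the potassium channel subunit gene Kcne3 (2.00 ± 0.14), the chloride channel gene Cftr (1.91 ± 0.15), the anion exchanger gene Slc26a9 (1.70 ± 0.20), Fxyd3 (1.48 ± 0.10) and Atp1b1 (0.96 ± 0.12). Cftr had 263, 240 and 40.9 CPM in Muc6+ cells, against 95.2, 49.6 and 12.7 CPM in Muc6 0 cells, with tumour 3 low in both classes. Of 17 tested mucosal defence genes 9 were higher and 5 were lower (median 0.54). Reg3b (1.46 ± 0.15), Reg1 (1.26 ± 0.12), the peptidoglycan recognition gene Pglyrp1 (1.41 ± 0.10) and the chemokine gene Cxcl17 (1.24 ± 0.15) were higher, and the iron-binding lipocalin gene Lcn2 was lower at 384, 158 and 1326 CPM in Muc6+ cells, against 905, 438 and 2869 CPM in Muc6 0 cells (−1.14 ± 0.11).

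Of 14 tested genes tied to spasmolytic metaplasia 7 were higher and 3 were lower (median 0.75). The glutathione peroxidase gene Gpx2 (2.06 ± 0.13), Lrig1 (1.45 ± 0.18) and Sox9 (0.78 ± 0.12) were higher. Cd44, a marker of that metaplasia, was lower with 344, 369 and 169 CPM in Muc6+ cells, against 426, 449 and 350 CPM in Muc6 0 cells (−0.42 ± 0.12), and so was Wfdc2 (−0.33 ± 0.09). Cd44 did not pass without tumour 3 (−0.22) and stood at 0.028 after thinning to 3000 UMIs, and Wfdc2 did not pass without tumour 1 (−0.32). Clu did not pass the test (−0.15 ± 0.11). Against pit-gate cells 5 of 12 tested genes of this list were higher and 3 were lower. There Cd44 was higher (0.77 ± 0.14), with Dclk1, Lrig1, Sox9 and Gpx2, while Nt5e, Wfdc2 and Clu were lower.

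**Figure D5:**
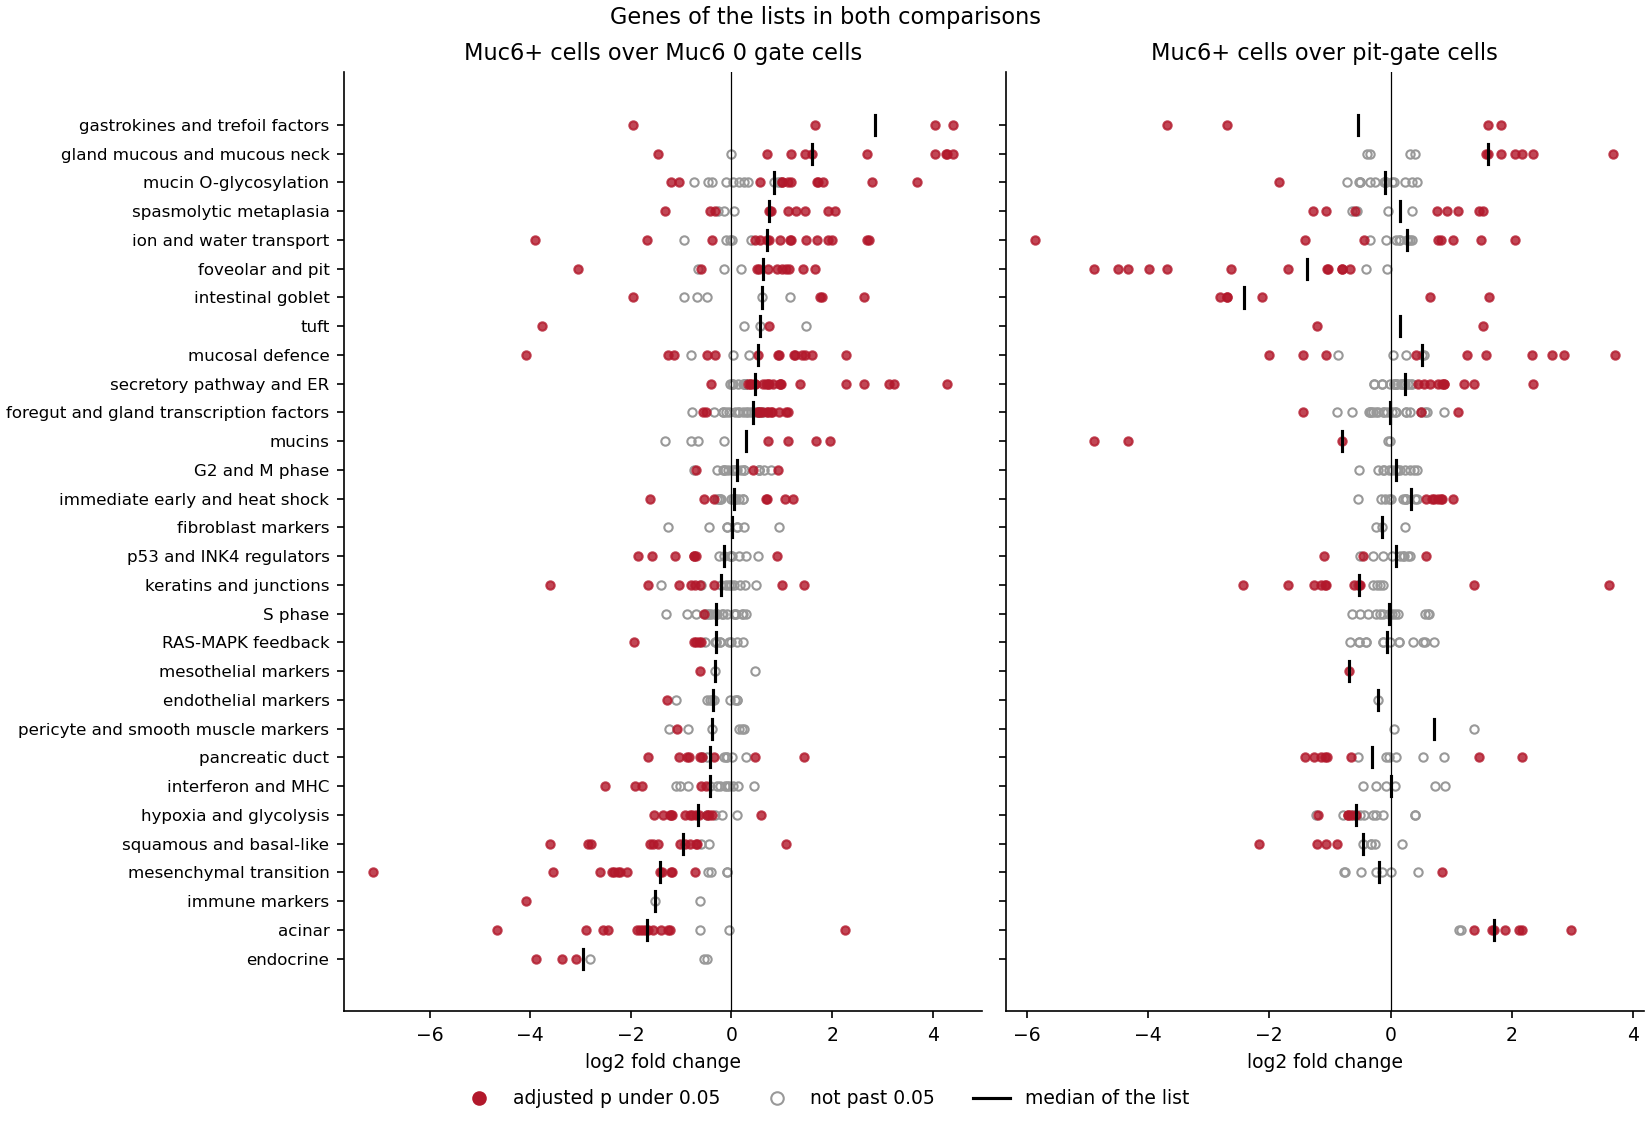
Log2 fold change of each tested gene of the lists for Muc6+ cells over Muc6 0 cells (left) and over pit-gate cells (right), with genes past an adjusted p of 0.05 filled and the median of each list as a bar. On the left the gland mucous list has a median of 1.60 and the mesenchymal list one of −1.42; on the right the foveolar list has a median of −1.37 and the acinar list one of 1.71.

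Mesenchymal genes were lower. Of 17 tested genes of the mesenchymal list 13 were lower and 0 were higher (median −1.42). Vim, the intermediate filament of mesenchymal cells, had 80.5, 164 and 77.7 CPM in Muc6+ cells, against 575, 1058 and 493 CPM in Muc6 0 cells (−2.62 ± 0.12, edgeR adjusted p = 1.79e-16). Hmga2, a chromatin protein of embryonic and invasive cells (−2.33 ± 0.17), fibronectin (Fn1, −2.26 ± 0.13) and the galectin gene Lgals1 (−2.22 ± 0.11) were lower as well. Tumour 2 had the highest Vim level in both classes. Of 8 tested fibroblast markers 0 passed in either direction, and their summed level was 72.8 to 120 CPM in Muc6+ cells and 77.1 to 119 CPM in Muc6 0 cells. The limit on Dcn and Col3a1 had already removed cells rich in fibroblast RNA from both classes. The part of such RNA in the mesenchymal values was not tested. Other genes that were lower were the tight junction gene Cldn6 (−2.65 ± 0.15), the tubulin gene Tuba1a (−2.61 ± 0.18), Ctla2a (−2.59 ± 0.17), the kinase gene Prkg2 (−2.58 ± 0.19), the matrix gene Fbln2 (−2.54 ± 0.15), Sox11 (−2.52 ± 0.16), the thrombin receptor gene F2r (−2.52 ± 0.17), the moesin gene Msn (−2.48 ± 0.15) and the carboxypeptidase gene Cpe (−2.41 ± 0.14). Ankrd1, a target of the YAP coactivator, had 9.50, 9.31 and 0 CPM in Muc6+ cells, against 128, 98.0 and 5.37 CPM in Muc6 0 cells (−3.59 ± 0.22), and the protease gene Mcpt8 had 20.4, 5.82 and 0.818 CPM, against 332, 172 and 53.5 CPM in Muc6 0 cells (−4.23 ± 0.21).

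Squamous and basal-like genes were lower in 11 of 14 tested cases and higher in 1 (median −0.97), among them the cytokine gene Il1a (−2.78 ± 0.45). Of 16 tested pancreatic duct genes 7 were lower and 2 were higher (median −0.42). Krt7 had 570, 522 and 289 CPM in Muc6+ cells, against 1217, 1250.3 and 629 CPM in Muc6 0 cells (−1.04 ± 0.10), and Spp1, osteopontin, had 7438, 7484 and 3731 CPM, against 12917, 14309 and 8902 CPM in Muc6 0 cells (−0.88 ± 0.09). The tight junction gene Cldn4 was lower (−1.65 ± 0.19) and Cldn2, a claudin of leaky secretory epithelium, was higher (1.43 ± 0.13). Of 18 tested hypoxia and glycolysis genes 13 were lower and 1 was higher (median −0.67), with the glucose transporter gene Slc2a1 (−1.37 ± 0.21), Pkm (−0.81 ± 0.11) and Ldha (−0.48 ± 0.12, not past the threshold without tumour 1 at −0.43) as examples. Of 15 tested RAS-MAPK feedback genes 5 were lower and 0 were higher, led by Ier3 (−1.93 ± 0.15) and the cyclin gene Ccnd1 (−0.75 ± 0.15). The cell cycle inhibitors Cdkn2a (−1.12 ± 0.12) and Cdkn2b (−1.57 ± 0.15) were lower and Ccnd2 was higher (0.90 ± 0.12). Of 20 tested S phase genes 1 was lower and 0 were higher, and of 22 G2 and M phase genes 2 were higher and 1 was lower. Mki67, a marker of dividing cells, had 15.4, 25.6 and 4.09 CPM in Muc6+ cells, against 14.5, 11.7 and 3.89 CPM in Muc6 0 cells and did not pass the test (0.55 ± 0.26). Among stress genes Nr4a1 (1.23 ± 0.14) and Hspa1b (1.07 ± 0.13) were higher and Hspb1 was lower (−1.62 ± 0.14), where Hspa1b shares reads with its near-identical copy Hspa1a and is uncertain.

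Genes for digestive enzymes of acinar cells were mostly lower than in Muc6 0 cells. Of 16 tested acinar genes 13 were lower and 1 was higher (median −1.68), with Zg16, a lectin of zymogen granules, as the lowest (−4.67 ± 0.28). Outside the list, 2210010C04Rik was lower too (−2.98 ± 0.22). Ctrb1, chymotrypsinogen B, had 1102, 10.5 and 326 CPM in Muc6+ cells, against 2197, 356 and 3149 CPM in Muc6 0 cells (−2.45 ± 0.29). Summed acinar genes passed 1% of the UMIs in 3, 0 and 2 Muc6+ cells, against 60, 7 and 69 Muc6 0 cells. With those cells left out, 0 of the list were lower and 2 were higher. Since this filter used the acinar UMIs themselves, these values only describe where that RNA lay and do not test the difference. Without those cells Zg16 did not pass the test (−0.61), Ctrb1 had a log2 fold change of 0.14, 2210010C04Rik one of 0.10 and Clps, colipase, one of 1.02, against −1.22 with them. Gp2 then stood at 4.90 and Cela1 at 2.83, both still higher.

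Lists of other cell types gave mixed results. Of 13 listed immune markers 3 were tested, of which 0 were higher and 1 was lower, and their summed level was 7.69, 5.82 and 9.0 CPM in Muc6+ cells, against 43.1, 23.5 and 11.1 CPM in Muc6 0 cells. Ptprc, which encodes CD45, had 0, 0 and 0.818 CPM in Muc6+ cells. Endothelial markers had 0 higher and 1 lower of 10 tested, with summed levels of 10.6 to 75.5 CPM in Muc6+ cells and 25 to 105 CPM in Muc6 0 cells. Of 7 tested pericyte and smooth muscle markers 0 were higher and 1 was lower, and of 3 mesothelial markers 0 were higher and 1, Msln, was lower, with mesothelial sums of 219, 180 and 371 CPM in Muc6+ cells, against 306, 275 and 759 CPM in Muc6 0 cells. The goblet list had 3 higher genes (Spdef, Spink4 and Bcas1) and 1 lower of 9 tested, and its sum was 225, 560 and 148 CPM in Muc6+ cells, against 286, 59.0 and 174 CPM in Muc6 0 cells. Most of the goblet sum of tumour 2 was Spink4 at 434 CPM. The tuft list had 1 higher gene, Dclk1, and 1 lower of 5 tested, with sums of 110, 74.5 and 41.7 CPM in Muc6+ cells, against 73.0, 49.0 and 39.6 CPM in Muc6 0 cells, while the tuft factor Pou2f3 was at 0 in all Muc6+ sums. The part of such cells in the results was not tested. The endocrine list had 0 higher and 3 lower of 6 tested, and the interferon and MHC list 0 higher and 5 lower of 17. Mitochondrial UMIs made up a median of 5.31%, 4.87% and 5.15% in Muc6+ cells, against 3.97%, 3.92% and 5.38% in Muc6 0 cells. With cells over 10% left out, 1225 genes were higher and 1452 were lower.

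The second comparison set Muc6+ cells against pit-gate cells, the other gastric mucous-like cells of the same tumours. Of 7903 tested genes 323 were higher in Muc6+ cells (4.09%) and 482 were lower (6.1%), together 10.2%, with a median log2 fold change of 0.02 over all of them. Only 15 and 28 genes passed without the tumour as a block. Tumour 1 carried much of the count, since 50 and 96 genes passed without it, and DESeq2 called 98 and 181. The limit on Gkn1 and Gkn2 and the Muc6 count chose both classes, so their levels (Gkn1 at 112, 173 and 170 CPM in Muc6+ cells, against 6551, 6342 and 5593 CPM in pit-gate cells) are a description only. Pit-gate cells had a median depth of 12236, 8599 and 8743 UMIs. The comparison shares the Muc6+ sums with the first one.

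The gland markers were higher in Muc6+ cells than in pit-gate cells. Tff2 had 17165, 21227 and 21621 CPM in Muc6+ cells, against 4423, 6705 and 8111 CPM in pit-gate cells (log2 fold change 1.62 ± 0.09, edgeR adjusted p = 3.2e-08). Gkn3 had 12886, 15094 and 10912 CPM in Muc6+ cells, against 4443, 3981 and 2383 CPM in pit-gate cells (1.82 ± 0.11). Both classes carried Tff2 and Gkn3, at levels that did not overlap. Agr2 (2.35 ± 0.28), Aqp5 (2.05 ± 0.20) and Dmbt1 (1.58 ± 0.10) were higher too, and of 11 tested gland mucous genes 7 were higher and 0 were lower (median 1.62). Gp2 had 219, 54.7 and 96.5 CPM in Muc6+ cells, against 2.76, 2.07 and 1.91 CPM in pit-gate cells (5.77 ± 0.29, edgeR adjusted p = 1.64e-08), where the pit-gate sums held 9 UMIs in all. Gp2, and Mia among the higher gland mucous genes, passed the low-count filter on their Muc6+ sums alone. Their calls are thus a description and not independent evidence of a difference. Pgc had 147, 60.5 and 352 CPM in Muc6+ cells, against 6.63, 2.07 and 40.1 CPM in pit-gate cells (3.66 ± 0.24). Tumour 3 had the highest Pgc level in both classes.

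Pit genes were lower in Muc6+ cells. Of 14 tested foveolar and pit genes 12 were lower and 0 were higher (median −1.37). Tff1 had 2343, 3647 and 1776 CPM in Muc6+ cells, against 33850, 29977 and 28030 CPM in pit-gate cells (−3.69 ± 0.14, edgeR adjusted p = 2.75e-09). Muc5ac had 2.71, 5.82 and 4.91 CPM in Muc6+ cells, against 39.2, 72.5 and 325 CPM in pit-gate cells (−4.90 ± 0.33, edgeR adjusted p = 2.53e-07). The tumour sums of the classes did not overlap for either gene. Muc5ac varied widely between tumours in pit-gate cells, with a mean of 146 ± 156 CPM (SD, n = 3). Muc5ac and Lypd8, another lower gene of the list, passed the low-count filter on their pit-gate sums alone, so their calls are a description. Psca, a surface antigen of stomach and pancreatic cancer, was lower (−3.98 ± 0.20), as were Anxa10, an annexin of gastric epithelium (−2.63 ± 0.26), Tff3 (−2.70 ± 0.35), the gastric claudin gene Cldn18 (−1.69 ± 0.17) and Vsig1 (−1.05 ± 0.20). Dpcr1 (−4.33 ± 0.29), Prap1 (−4.27 ± 0.48), the glutathione transferase gene Gsta1 (−3.59 ± 0.18), the homeobox gene En1 (−3.54 ± 0.34) and Cwh43 (−3.22 ± 0.20) had the other large decreases.

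Reg3b, an antibacterial lectin, had 2938, 3042 and 2520 CPM in Muc6+ cells, against 213, 312 and 131 CPM in pit-gate cells (3.70 ± 0.16, edgeR adjusted p = 6.78e-09). Its relative Reg3g (2.87 ± 0.20), Reg1 (2.67 ± 0.18) and the complement gene C4b (2.91 ± 0.25) were higher, and of 15 tested defence genes 7 were higher and 3 were lower (median 0.52). Lcn2, lower than in Muc6 0 cells, was higher than in pit-gate cells (2.34 ± 0.27). Wfdc18 (3.25 ± 0.13), Lrg1 (3.13 ± 0.20), Tstd1 (3.08 ± 0.20) and Tmem45a (3.07 ± 0.27) were higher as well, and so were the claudin genes Cldn10 (3.6 ± 0.35) and Cldn2 (1.38 ± 0.14). The duct list had 2 higher genes, Mmp7 (2.16 ± 0.32) and Spp1 (1.46 ± 0.12), and 6 lower of 14 tested. Sox9, which was not in the duct list, was higher as well (1.11 ± 0.16). Of 16 tested keratin and junction genes 9 were lower and 2 were higher, among them Krt20, a keratin of mature surface epithelium (−2.43 ± 0.14), Krt19 (−1.15 ± 0.11) and Krt8 (−1.08 ± 0.10).

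Genes of mucin making were also set against pit-gate cells. Of 16 tested O-glycosylation genes 0 were higher and 1 was lower (median −0.10), and Galnt7 (−0.10 ± 0.15) and Gcnt3 (−0.51 ± 0.19) did not pass. Ern2 had 94.5, 101 and 99.8 CPM in Muc6+ cells, against 72.4, 73.5 and 78.2 CPM in pit-gate cells, and did not pass either (0.33 ± 0.15), which does not show that the classes are alike. Of 30 secretory pathway and ER genes 10 were higher and 0 were lower (median 0.23), with Creb3l4 at 1.37 ± 0.23, Creb3l1 at 0.89 ± 0.18 and Xbp1 at 0.86 ± 0.14, none of which passed without tumour 1 (1.35, 1.04 and 0.89). Spdef (0.65 ± 0.18) passed but was lost without tumour 1 (0.62) or 2 (0.55). Of 9 tested acinar genes 7 were higher and 0 were lower (median 1.71), with summed levels of all listed acinar genes at 2547, 192 and 1184 CPM in Muc6+ cells, against 799, 66.3 and 197 CPM in pit-gate cells. Colipase (Clps, 2.98 ± 0.23) and Cela1 (2.12 ± 0.15) were examples. The part of RNA from acinar cells in these values was not tested. Of 8 tested mesenchymal genes 1 was higher, Fn1 (0.85 ± 0.18, not past the threshold without tumour 1 at 0.90 or tumour 2 at 0.56), and Vim did not pass (−0.76 ± 0.34). In the S phase and G2 and M phase lists 0 of 13 and 0 of 15 tested genes passed.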

How the data were processed

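Droplet single-cell RNA-seq (10x 3' v2) of 3 KPf/fC tumours was analysed. The authors deposited UMI counts per gene and cell barcode, not normalized, in 1 matrix, with the tumour given by the barcode suffix. Cell Ranger 2.1.1 and Seurat 3.0 are listed per the submitters' processing notes, with no build named there. The authors' deposited table of clusters gives log2 fold changes and adjusted p-values. Tumours held 60801677, 67262634 and 53162622 UMIs.

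Cells were taken by the thresholds in the report, and 19302 barcodes passed the filters on genes and mitochondrial UMIs. UMIs were summed per tumour and class (Python 3.11.15) and fitted with edgeR 4.0.16 in R 4.3.3 (quasi-likelihood test, TMM, low-count filter, Benjamini-Hochberg over all tested genes, threshold 0.05). A gene could pass the low-count filter on the sums of either class alone. Each tumour gave a sum for both classes, so tumour entered as a block. Fold changes are log2 with the standard error. The 7 genes of the rule were not tested. Genes named were the 15 (first comparison) or 10 (second) largest changes per direction among genes past the threshold, with the same sign in every tumour and a mean of at least 50 CPM in the higher class, plus members of the lists. Members and lists were chosen with earlier results of these data known. Scripts were tested on simulated data. Doublets were called with Scrublet in scanpy 1.11.5 and kept in the main values. Alternatives included DESeq2 1.42.0 and thinning each cell to 3000 UMIs, which left out shallower cells. For the thinned fits the classes were chosen again by the thinned Muc6 UMIs.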

Additional observations from a re-analysis of the deposited data

How the results depend on the processing

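Without the tumour as a block, 38 genes were higher and 42 lower than in Muc6 0 cells and 15 and 28 than in pit-gate cells, against 1340, 1432, 323 and 482 with it. DESeq2 gave 863, 800, 98 and 181, and thinning to 3000 UMIs 442, 725, 133 and 197. Leaving out 1 tumour gave 879 to 1020 and 935 to 1222 against Muc6 0 cells, and 50 to 365 and 96 to 589 against pit-gate cells, lowest each time without tumour 1. Thinning took the share of Muc6+ cells to 5.71%, 2.15% and 2.16% in tumours 1, 2 and 3, a threshold of 1 Muc6 UMI to 19.2%, 8.94% and 8.91%, and one of 5 to 5.29%, 1.84% and 1.83%. Some log2 fold changes changed sign. Against Muc6 0 cells these were Clu (0.010 without tumour 1, −0.47 without tumour 2), Muc5ac (0.63 without tumour 3, −1.19 without tumour 2), Muc5ac also at 1 Muc6 UMI (0.55) and with no gastrokine limit (0.22), Cd44 (0.028), Mki67 (−1.53) and Top2a (−0.42) after thinning, and 2210010C04Rik (0.10), Ctrb1 (0.14) and Clps (1.02) without acinar-rich cells. Against pit-gate cells they were Galnt7 without tumour 1 (0.087, against −0.27 without tumour 3), thinned (0.27) and at 5 Muc6 UMIs (0.21), Mki67 without tumour 2 (−0.19), without tumour 3 (−0.02; 0.42 without tumour 1) and at 5 UMIs (−0.28), and Ern2 (−0.32) and Vim (0.62) at 1 UMI. The cause was not tested. Thinning leaves fewer UMIs in the fit, and leaving out a tumour leaves fewer sums. The thinned fits also chose the classes again by the thinned Muc6 UMIs. Muc6+ cells then numbered 122, 42 and 76 in tumours 1, 2 and 3. Muc6 0 cells numbered 1894, 1868 and 3337, and pit-gate cells 192, 124 and 136. These 2 classes thus took in cells that had Muc6 UMIs before thinning. Of 106 named calls against Muc6 0 cells 22 passed without the block and 93 after thinning. Of 54 against pit-gate cells 18 and 46 passed. Low genes such as A4gnt are limited by depth.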

Other observations

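Cells with at least 2 Muc6 UMIs that were also above the gastrokine limit numbered 102, 28 and 59 in tumours 1, 2 and 3, which was 36.6%, 19.05% and 28.5% of all cells above that limit. They were outside both classes compared in the report. Scrublet marked 0 of them, and their median depth was 13203, 9461 and 7951 UMIs. Tff2 had 8695, 31652 and 24948 CPM in these cells and Gkn3 had 17342, 17293 and 12160 CPM. Tff1, which was 1776 to 3647 CPM in Muc6+ cells, had 22652, 19946 and 18835 CPM in them. Agr2 had 4815, 6339 and 1716 CPM in them, against 2620, 3548 and 1730 CPM in Muc6+ cells. Aqp5 had 221, 518 and 128 CPM, against 308, 420 and 177 CPM in Muc6+ cells. Pgc, Gp2, Reg3b, Muc5ac and Psca were below the level of the class they were high in. Pgc had 47.2, 3.43 and 145 CPM in these cells, against 147, 60.5 and 352 CPM in Muc6+ cells. Gp2 had 35.6, 24.0 and 34.2 CPM, against 219, 54.7 and 96.5 CPM in Muc6+ cells, and Reg3b had 255, 858 and 816 CPM, against 2938, 3042 and 2520 CPM in Muc6+ cells. Muc5ac had 4.35, 10.3 and 141 CPM, against 39.2, 72.5 and 325 CPM in pit-gate cells, and Psca had 98.7, 206 and 2.14 CPM, against 510, 710 and 41.0 CPM in pit-gate cells. These are values of cells chosen by both genes, with no test.

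In the authors' deposited table of clusters, Muc6 had log2 fold changes of 1.70 in cluster 1, 2.88 in cluster 7 and 1.89 in cluster 8. In the authors' deposited table Agr2 had 0.26 in cluster 1, 2.65 in cluster 7 and 2.97 in cluster 8. Gkn1 had 1.07 in cluster 1, 0.00 in cluster 7 and 4.23 in cluster 8 of the authors' deposited table. Muc5ac had 2.43, 0.24 and 0.37 in clusters 1, 7 and 8 of the authors' deposited table.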
